A study of Danio rerio with 17 samples.

Results

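Sox10-high cells, called PreC_High here, were compared with sox10-low cells, called PreC_Low, from the same dissociated eye tissues of zebrafish labelled as pre-cancerous. The members are 6 of the 17 libraries of the series. They were chosen by their labels, namely 3 RFP-positive libraries (PreC_High 1, 2 and 3) and 3 RFP-negative ones (PreC_Low 1, 2 and 3), and the tissue codes in the labels pair PreC_High 1 with PreC_Low 1, 2 with 2 and 3 with 3. The series concerns a zebrafish model of malignant peripheral nerve sheath tumour, a tumour of the Schwann cell lineage, and also holds 3 sox10-low control libraries and 8 libraries from fish with cancer.

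PreC_High and PreC_Low share 1 genotype, homozygous for brca2 hg5 and carrying the reporter tg(sox10:RFP), and share ages of 4.5, 4.5 and 4.7 months for tissues 1, 2 and 3. The labels call the PreC_High cells precancerous and the PreC_Low cells their microenvironment. The gate is activity of the sox10 promoter in the reporter, so it takes every cell type in which that promoter is active and is not a gate on transformed cells. The labels do not say how pure the sort was, nor whether a tissue code stands for 1 animal or several, so the p-values cover only how these libraries vary, which may be technical. In sorted bulk samples, fewer cells of a type and less RNA per cell cannot be told apart.

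Sox10 is a transcription factor of the SoxE family. It specifies neural crest cells and is kept on in several of their descendants, among them Schwann cells and pigment cell precursors, and also in oligodendrocytes, the myelin-forming glia of the central nervous system, where it switches on myelin genes. Zebrafish have several pigment cell types from the neural crest, including black melanophores, reflective iridophores whose platelets are built from purines, and yellow xanthophores. The retina itself, with its photoreceptors, neurons, Müller glia and pigment epithelium, comes from the neural tube.

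The 6 libraries held 61845021 to 80096474 counts and 20041 to 23169 detected genes. Across genes, Pearson correlations of log2 CPM (counts per 1000000 counts of a library total scaled by the TMM method) were 0.901 to 0.918 within PreC_High, 0.881 to 0.912 within PreC_Low and 0.709 to 0.794 between the groups. The 10 most abundant genes took 10.2, 9.53 and 9.35% of the counts in PreC_High 1, 2 and 3, against 21.8, 23.2 and 11.4% in PreC_Low 1, 2 and 3. PreC_Low 3 therefore differs from the other PreC_Low libraries in composition. Apart from the pituitary hormone genes, results that rest on it are given with and without it.

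The gene that drives the reporter followed the sort. SOX10 (ENSDARG00000077467) had 1329, 1597 and 1545 CPM in the PreC_High libraries, against 20.7, 23.8 and 9.76 CPM in the PreC_Low libraries (log2 fold change 6.37 ± 0.93, adjusted p = 0.000114). The lowest PreC_High library stood far above the highest PreC_Low library. Transcripts of the mutated gene brca2 (ENSDARG00000079015), which works in repair by homologous recombination, had 13.1, 9.90 and 17.9 CPM in the PreC_High libraries, against 14.1, 8.19 and 21.8 CPM in the PreC_Low libraries. The groups overlapped and the difference did not pass the test (log2 fold change -0.11 ± 0.40, adjusted p = 0.864), with log2 fold changes of 0.08 without PreC_High 2 and 0.29 without PreC_Low 3.

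Adjusted p-values are edgeR quasi-likelihood values with Benjamini-Hochberg adjustment over the 23299 genes tested, genes with an adjusted p under 0.05 count as called, and a positive log2 fold change means higher in PreC_High. Of the genes tested, 7288 (31.3%) were called, 2161 higher (9.28%) and 5127 lower (22.0%) in PreC_High. At least 8-fold differences were seen in 632 of the rises and 3414 of the falls. The median log2 fold change over all genes tested was -0.15, and the 2 groups did not overlap in 47.7% of the genes. The rises numbered 1332 without PreC_Low 1 and 1345 without PreC_Low 2, while 1025 rises and 3471 falls were called in each fit that left out 1 of the 6 libraries. All 3 tissues had the same direction in 7160 of the 7288 called genes, and the 2 groups did not overlap in 6866 of them. The call itself makes both likely, because they use the same values as the call. Genes are described below by lists of cell type and pathway genes, with each list's count and median, to be read against the 9.28% higher, the 22.0% lower and the median of all genes. Up to 4 called members of a list were named by their adjusted p, and the other members named were chosen after their values were seen.

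**Figure D1:**
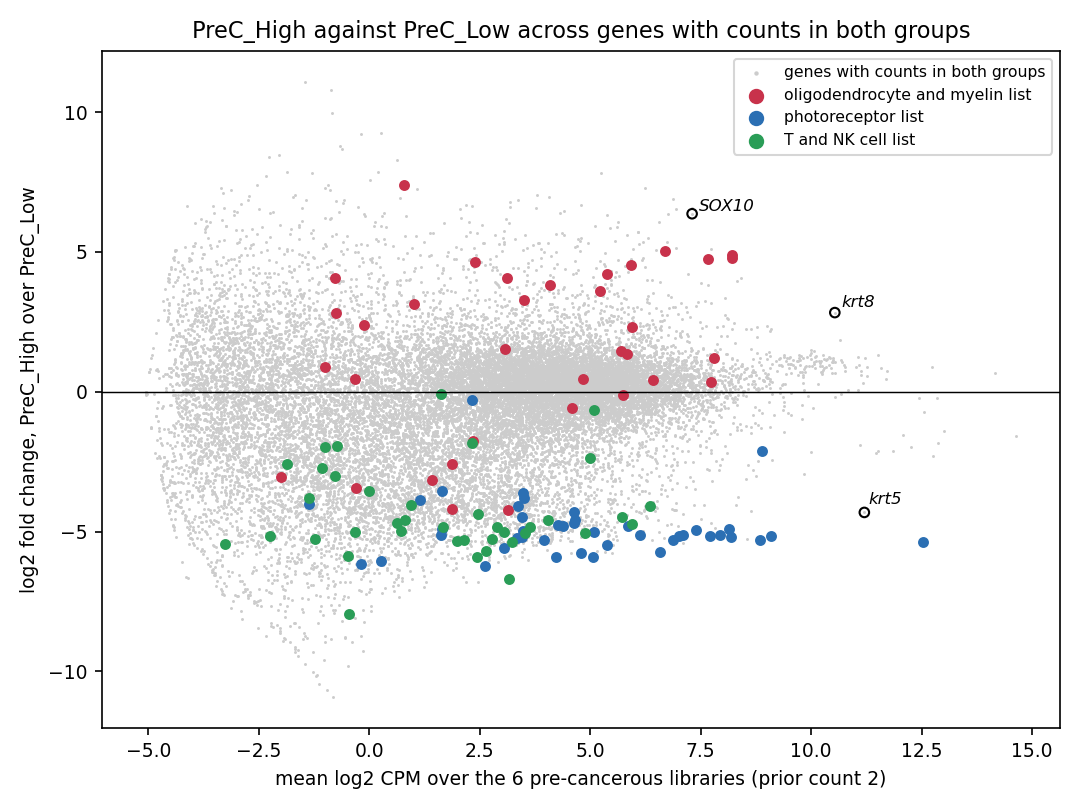
Log2 fold change of PreC_High over PreC_Low against mean log2 CPM over the 6 pre-cancerous libraries, for genes with counts in both groups; coloured points are members of 3 gene lists and open circles are single genes named beside them. Most photoreceptor and T-cell list members lie near a log2 fold change of -5, while most of the abundant myelin list members lie above 0.

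Neural crest and Schwann genes were split between higher and lower. Of 39 members tested, 9 rose, 7 fell and 23 were not called, with a median log2 fold change of 0.49 against -0.15 over all genes. Rises were more frequent than among all genes (9.28%), while falls were not (22.0%). S100B (ENSDARG00000057598), a calcium-binding protein of glia, had 376, 224 and 259 CPM in the PreC_High libraries, against 3.73, 2.21 and 2.42 CPM in the PreC_Low libraries (log2 fold change 6.68 ± 1.29, adjusted p = 0.000972). crestin (ENSDARG00000105570), a transcript used in zebrafish as a marker of neural crest, had 55.7, 74.8 and 56.6 CPM in the PreC_High libraries, against 1.47, 2.38 and 0.326 CPM in the PreC_Low libraries (log2 fold change 5.49 ± 1.25, adjusted p = 0.00339). EDNRB (ENSDARG00000089334), the endothelin receptor of pigment cell precursors, had 74.2, 71.7 and 92.9 CPM in the PreC_High libraries, against 1.72, 0 and 0.674 CPM in the PreC_Low libraries (log2 fold change 6.64 ± 1.497, adjusted p = 0.00317). The highest PreC_Low value of the 3 genes was 3.73 CPM and the lowest PreC_High value 55.7 CPM. crestin came to a log2 fold change of 6.12 without PreC_Low 2 and EDNRB (ENSDARG00000089334) to 7.85 without PreC_Low 1.

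Among the rises were transcription factors of the crest lineage. SOX8 (ENSDARG00000105301), another SoxE factor, had 842, 779 and 748 CPM in the PreC_High libraries, against 64.6, 70.6 and 31.6 CPM in the PreC_Low libraries (log2 fold change 3.83 ± 0.97, adjusted p = 0.00689). PAX3 (ENSDARG00000010192), a factor of early crest and pigment precursors, had 155, 79.1 and 75.7 CPM in the PreC_High libraries, against 4.68, 2.15 and 0.849 CPM in the PreC_Low libraries (log2 fold change 5.33 ± 1.16, adjusted p = 0.00241). snai1a (ENSDARG00000056995), a regulator of epithelial to mesenchymal transition, rose by 3.84 ± 0.89 on the log2 scale, and zeb2a (ENSDARG00000062338), a zinc finger factor needed for Schwann cell differentiation in mice, rose by 2.51 ± 0.33. CDH2 (ENSDARG00000018693), N-cadherin, rose by 1.46 ± 0.35. No PreC_High library of these 5 genes fell to the level of any PreC_Low library. PAX3 (ENSDARG00000010192) came to a log2 fold change of 6.10 without PreC_Low 1.

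Other genes of the same list fell. NCAM1 (ENSDARG00000056181), a neural cell adhesion molecule, had 31.9, 31.8 and 37.0 CPM in the PreC_High libraries, against 223, 229 and 362 CPM in the PreC_Low libraries (log2 fold change -3.01 ± 0.55, adjusted p = 0.000685). Both IDs of the low-affinity neurotrophin receptor fell, NGFR (ENSDARG00000088708) by a log2 fold change of -2.62 ± 0.63 and NGFR (ENSDARG00000089223) by -2.82 ± 0.74. twist1a (ENSDARG00000030402), a mesenchymal factor, and gfra1a (ENSDARG00000099732), a co-receptor for glial-derived neurotrophic factors, had log2 fold changes of -2.37 ± 0.50 and -3.51 ± 0.79. erbb3b (ENSDARG00000036993), the neuregulin receptor that Schwann cell precursors need in zebrafish, had 31.5, 21.3 and 24.4 CPM in PreC_High and 32.5, 27.0 and 12.9 CPM in PreC_Low, with overlapping groups and no call (log2 fold change 0.09 ± 0.60, adjusted p = 0.926). The erbb3b value was -0.08 without PreC_High 1 and -0.21 without PreC_Low 3. Neither ID of SOX9 was called either, with 9.80, 15.9 and 13.03 CPM in PreC_High and 5.30, 17.6 and 4.72 CPM in PreC_Low for SOX9 (ENSDARG00000043923) and a log2 fold change of 0.72 ± 0.67 for SOX9 (ENSDARG00000003293). NGFR (ENSDARG00000089223) came to a log2 fold change of -3.49 without PreC_High 1.

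Most of the myelin genes that were called rose. Of 36 oligodendrocyte and myelin members tested, 15 rose, 5 fell and 16 were not called (median 1.51). mbpa (ENSDARG00000036186), myelin basic protein, had 1134, 1008 and 1137 CPM in the PreC_High libraries, against 26.3, 62.4 and 31.9 CPM in the PreC_Low libraries (log2 fold change 4.76 ± 0.93, adjusted p = 0.00109). It stood at 1008 CPM or more in every PreC_High library and at 62.4 CPM or less in every PreC_Low library. The summed level of the list was 6566 to 7697 CPM in PreC_High and 754 to 1141 CPM in PreC_Low.

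The rises covered several functions of myelinating glia. Among adhesion and junction genes, CLDN19 (ENSDARG00000044569), a claudin of Schwann cells, had 649, 661 and 561 CPM in PreC_High and 12.8, 31.5 and 13.3 CPM in PreC_Low (log2 fold change 5.02 ± 1.12, adjusted p = 0.00291). cldnk (ENSDARG00000042357), a claudin of zebrafish myelinating glia, had 349, 271 and 290.3 CPM in PreC_High and 8.88, 20.7 and 9.51 CPM in PreC_Low (log2 fold change 4.54 ± 0.90, adjusted p = 0.00121). GJB1 (ENSDARG00000035553), a glial connexin, had 31.1, 34.5 and 32.5 CPM in PreC_High and 1.13, 0.0287 and 1.55 CPM in PreC_Low (log2 fold change 5.18 ± 0.85, adjusted p = 0.000288). mag (ENSDARG00000104023), the myelin-associated glycoprotein, rose by 4.21 ± 0.85 on the log2 scale. UGT8 (ENSDARG00000037455), which makes the myelin lipid galactocerebroside, rose by 3.60 ± 0.68, and MYRF (ENSDARG00000078676), a transcription factor of myelinating oligodendrocytes, rose by 3.82 ± 0.88. GJB1 (ENSDARG00000035553) came to a log2 fold change of 5.81 without PreC_Low 3.

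Other members of the myelin list fell or were not called. PDGFRA (ENSDARG00000070494), the growth factor receptor of oligodendrocyte precursors, also found on fibroblasts, had 1.899, 1.22 and 3.28 CPM in the PreC_High libraries, against 40.8, 49.8 and 29.0 CPM in the PreC_Low libraries (log2 fold change -4.23 ± 0.70, adjusted p = 0.000313). ASPA (ENSDARG00000005154), an enzyme of mature oligodendrocytes, and ENPP6 (ENSDARG00000040469), a phosphodiesterase of newly formed ones, had log2 fold changes of -2.59 ± 0.61 and -1.77 ± 0.45. mbpb (ENSDARG00000089413), the second myelin basic protein gene, had 119, 81.5 and 99.4 CPM in PreC_High and 66.2, 67.2 and 89.6 CPM in PreC_Low and was not called (log2 fold change 0.43 ± 0.48, adjusted p = 0.526). Levels of cnp (ENSDARG00000070822), a myelin enzyme, were 242, 259.7 and 227 CPM in PreC_High and 194, 193 and 180.1 CPM in PreC_Low, also with no call (log2 fold change 0.36 ± 0.28, adjusted p = 0.338). OLIG2 (ENSDARG00000040946), the oligodendrocyte lineage factor, had 26.1, 40.7 and 42.8 CPM in PreC_High and 3.86, 4.77 and 2.54 CPM in PreC_Low (log2 fold change 3.30 ± 0.97, adjusted p = 0.0169). That call was lost for OLIG2 without PreC_Low 1 or PreC_Low 3 (highest adjusted p = 0.0552). The other falls were PTPRZ1 (ENSDARG00000051814), a receptor phosphatase of precursors, and tppp (ENSDARG00000104399), a tubulin-binding protein, with log2 fold changes of -4.20 ± 1.47 and -3.17 ± 0.99. These calls were lost for PTPRZ1 (ENSDARG00000051814) without PreC_High 2, PreC_High 3, PreC_Low 1 or PreC_Low 2 (highest adjusted p = 0.106) and tppp without PreC_High 1, PreC_High 2 or PreC_Low 1 (highest adjusted p = 0.0795), and the number of myelin members that fell was 3 without PreC_Low 1. ASPA came to a log2 fold change of -3.29 without PreC_High 3, PTPRZ1 (ENSDARG00000051814) to -5.61 without PreC_High 1 and tppp to -4.12 without PreC_High 3.

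**Figure D2:**
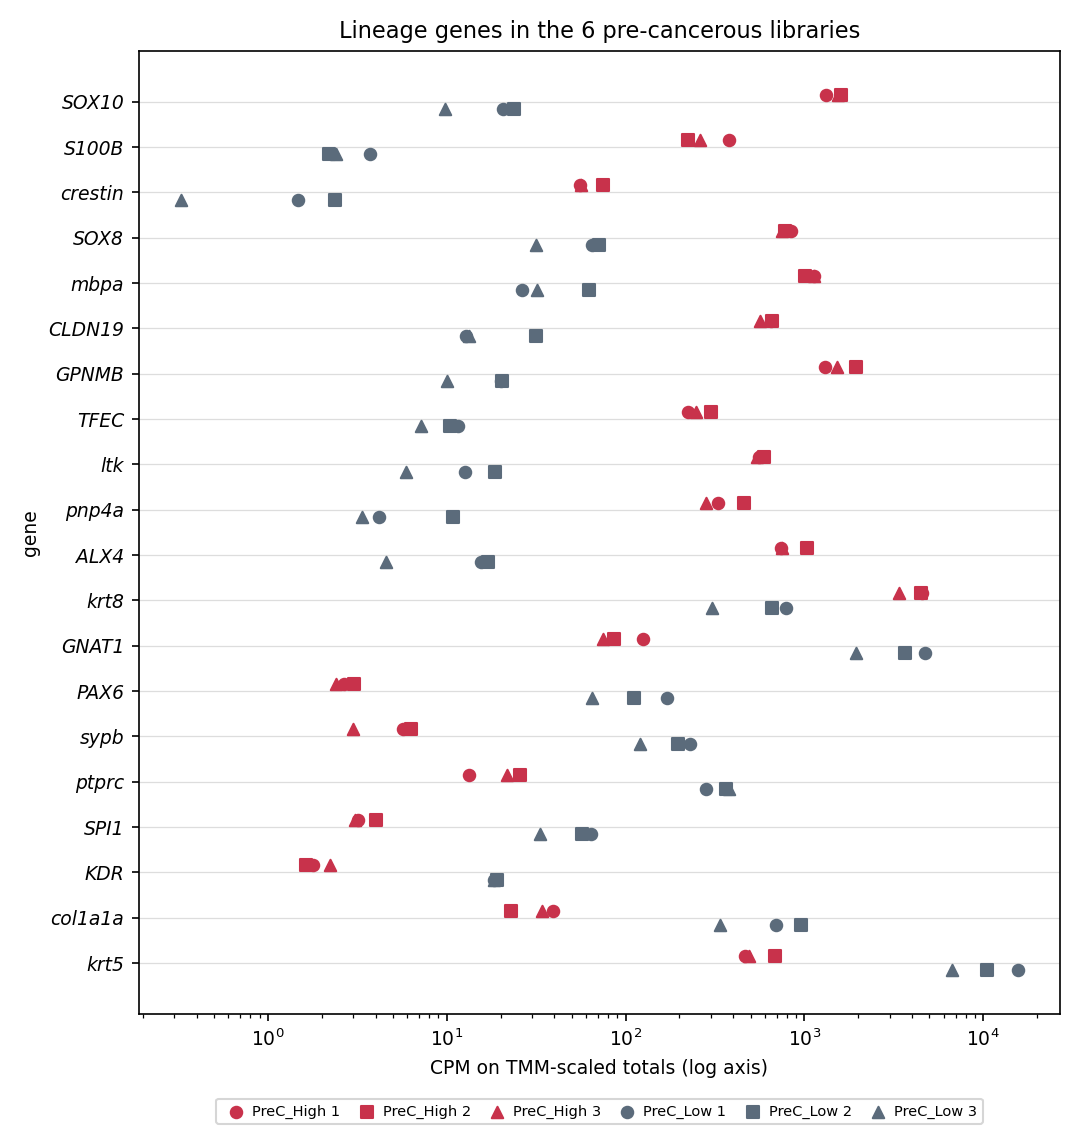
CPM of 20 genes in each of the 6 pre-cancerous libraries on a log axis, with PreC_High in red above PreC_Low in grey for each gene and symbols giving the tissue. Genes from SOX10 to krt8 lie to the right in PreC_High and genes from GNAT1 to krt5 lie to the left, with no overlap between the groups.

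Pigment cell genes moved both ways. Of 31 melanophore and retinal pigment epithelium members tested, 10 rose and 7 fell (median 1.60). The falls were about as frequent as among all genes (22.0%), and the rises were more frequent (9.28% among all genes). GPNMB (ENSDARG00000062688), a glycoprotein of pigment organelles, had 1309, 1955 and 1517 CPM in the PreC_High libraries, against 20.1, 20.3 and 10.1 CPM in the PreC_Low libraries (log2 fold change 6.56 ± 1.04, adjusted p = 0.000216). TFEC (ENSDARG00000098745), a transcription factor needed for iridophores in zebrafish, had 223, 302 and 247 CPM in the PreC_High libraries, against 11.6, 10.5 and 7.22 CPM in the PreC_Low libraries (log2 fold change 4.72 ± 0.48, adjusted p = 7.75e-06). MITF (ENSDARG00000003732), the related factor of the melanocyte lineage, had 23.7, 12.6 and 21.6 CPM in the PreC_High libraries, against 1.82, 3.35 and 1.91 CPM in the PreC_Low libraries (log2 fold change 3.03 ± 0.50, adjusted p = 0.00027). GPR143 (ENSDARG00000034572), a receptor of the melanosome, had 28.8, 79.7 and 31.9 CPM in the PreC_High libraries, against 0.459, 4.98 and 0.477 CPM in the PreC_Low libraries (log2 fold change 4.57 ± 1.05, adjusted p = 0.00364). MLPH (ENSDARG00000070991), melanophilin, which ties pigment organelles to the motor machinery, rose by 5.47 ± 0.99 on the log2 scale, and pmela (ENSDARG00000091298), a structural protein of the melanosome, rose by 2.61 ± 0.69. GPR143 came to a log2 fold change of 3.95 without PreC_High 2, GPR143 to 6.64 without PreC_Low 2 and MLPH to 7.23 without PreC_Low 2.

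The melanin synthesis genes DCT and TYRP1 (ENSDARG00000056151) stayed at 10.9 CPM or less in every library, and TYRP1 was called higher in PreC_High. DCT (ENSDARG00000006008) had 2.78, 1.68 and 1.01 CPM in PreC_High and 0.617, 0.0287 and 0.384 CPM in PreC_Low and was not called (log2 fold change 2.41 ± 1.21, adjusted p = 0.140), and the transporter gene SLC24A5 (ENSDARG00000024771) stayed under 1 CPM in every library with no call (log2 fold change -0.92 ± 1.46, adjusted p = 0.667). TYRP1 (ENSDARG00000056151) had 8.26, 1.901 and 10.9 CPM in PreC_High and 0.472, 0.776 and 0.826 CPM in PreC_Low (log2 fold change 3.34 ± 1.05, adjusted p = 0.0231). The call was lost for TYRP1 (ENSDARG00000056151) without PreC_High 3, PreC_Low 1 or PreC_Low 2 (highest adjusted p = 0.0831), and with the tissue as a block (adjusted p = 0.0582). rlbp1a (ENSDARG00000012504), the retinaldehyde-binding protein of pigment epithelium and Müller glia, had 4.80, 10.3 and 7.33 CPM in the PreC_High libraries, against 226, 214 and 154 CPM in the PreC_Low libraries (log2 fold change -4.73 ± 0.70, adjusted p = 0.000119). KIT (ENSDARG00000043317), the receptor tyrosine kinase of melanocyte precursors, had 1.55, 0.987 and 1.64 CPM in the PreC_High libraries, against 29.0, 37.0 and 15.6 CPM in the PreC_Low libraries (log2 fold change -4.29 ± 0.78, adjusted p = 0.000649). TRPM1 (ENSDARG00000011259), a channel of melanocytes and of bipolar neurons of the retina, had a log2 fold change of -3.69 ± 0.56.

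Several iridophore genes rose, and 2 ligand genes fell. Of 32 iridophore and xanthophore members tested, 11 rose, 4 fell and 17 were not called (median 0.62, or 0.51 with the member at 0 in a whole group set to its bound). ltk (ENSDARG00000042861), the receptor tyrosine kinase that iridophores need in zebrafish, had 554, 595 and 542 CPM in the PreC_High libraries, against 12.7, 18.6 and 5.91 CPM in the PreC_Low libraries (log2 fold change 5.51 ± 1.16, adjusted p = 0.00196). pnp4a (ENSDARG00000057575), a purine nucleoside phosphorylase of iridophores, had 330.4, 462 and 282 CPM in the PreC_High libraries, against 4.198, 10.8 and 3.37 CPM in the PreC_Low libraries (log2 fold change 5.87 ± 1.15, adjusted p = 0.00111). ALX4 (ENSDARG00000088332), a homeodomain factor, had 742, 1029 and 748 CPM in the PreC_High libraries, against 15.5, 17.004 and 4.61 CPM in the PreC_Low libraries (log2 fold change 6.09 ± 1.04, adjusted p = 0.000382), and the other ID of that symbol, ALX4 (ENSDARG00000074442), had a log2 fold change of 5.38 ± 0.87. The ligand genes of ltk went the opposite way. alkal1 (ENSDARG00000074387) had 0.663, 1.32 and 2.22 CPM in the PreC_High libraries, against 68.3, 44.6 and 30.27 CPM in the PreC_Low libraries (log2 fold change -5.09 ± 0.84, adjusted p = 0.000284). alkal2b (ENSDARG00000042815) had 0, 0.385 and 0.278 CPM in PreC_High and 9.59, 14.2 and 8.33 CPM in PreC_Low (log2 fold change -5.59 ± 1.15, adjusted p = 0.00164). The receptor was high in the sox10-high cells of each tissue, and both ligand genes were high in the sox10-low cells. pnp4a came to a log2 fold change of 6.56 without PreC_Low 2, alkal2b to -5.00 without PreC_High 1 and alkal2b to -6.28 without PreC_High 2.

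Of de novo purine synthesis genes, GMPS, ATIC and PAICS rose. GMPS (ENSDARG00000079848), which makes guanosine monophosphate, had 166, 219 and 157 CPM in the PreC_High libraries, against 19.8, 37.8 and 55.5 CPM in the PreC_Low libraries (log2 fold change 2.26 ± 0.33, adjusted p = 0.000105). ATIC (ENSDARG00000016706), which closes the purine ring, had 155, 148 and 153 CPM in the PreC_High libraries, against 18.3, 12.4 and 71.6 CPM in the PreC_Low libraries (log2 fold change 2.16 ± 0.55, adjusted p = 0.00665), and its log2 fold change was 3.31 without PreC_Low 3. PAICS (ENSDARG00000033539), an earlier step, had 239.6, 291 and 139 CPM in PreC_High and 41.8, 40.7 and 133 CPM in PreC_Low (log2 fold change 1.63 ± 0.52, adjusted p = 0.0256), with a call that was lost for PAICS without PreC_High 1, PreC_High 2, PreC_Low 1 or PreC_Low 2 (highest adjusted p = 0.106). PPAT (ENSDARG00000004517), the first step, was not called, with 82.4, 108 and 67.4 CPM in PreC_High and 16.4, 27.9 and 114 CPM in PreC_Low (log2 fold change 0.70 ± 0.60, adjusted p = 0.394). PreC_Low 3 was the highest of the PreC_Low libraries in each of these 4 genes. Without it PPAT was called (log2 fold change 1.96, adjusted p = 0.0132). Of xanthophore genes, slc2a15a (ENSDARG00000029894), a sugar transporter family gene needed for xanthophores in medaka, had 15.0, 38.7 and 25.9 CPM in PreC_High and 0.0525, 0 and 0.0698 CPM in PreC_Low (log2 fold change 9.24 ± 1.41, adjusted p = 0.000155), while csf1ra (ENSDARG00000102986), a receptor of xanthophores and of macrophages, had 4.54, 3.77 and 6.48 CPM in PreC_High and 72.8, 114 and 50.2 CPM in PreC_Low (log2 fold change -4.00 ± 0.49, adjusted p = 2.74e-05). bco1l (ENSDARG00000103659), a carotenoid oxygenase gene, had a log2 fold change of -2.93 ± 0.67. PAICS came to a log2 fold change of 2.44 without PreC_Low 3, slc2a15a to 9.85 without PreC_Low 3 and bco1l to -3.72 without PreC_High 3.

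The 10 largest rises by log2 fold change held S100B, EDNRB (ENSDARG00000089334) and GPNMB and 7 genes outside the gene lists. They were drawn from called genes with a gene name, not a clone or locus name, that averaged 2 or more in log2 CPM. Groups that did not overlap and a call kept without any 1 library were also required. defbl1 (ENSDARG00000075161), a beta-defensin-like gene, had 510.5, 647 and 676 CPM in the PreC_High libraries, against 2.72, 4.18 and 1.13 CPM in the PreC_Low libraries (log2 fold change 7.84 ± 1.22, adjusted p = 0.000178). apoda.1 (ENSDARG00000060345), an apolipoprotein D gene, had 897, 1264 and 915 CPM in the PreC_High libraries, against 3.67, 12.1 and 4.04 CPM in the PreC_Low libraries (log2 fold change 7.28 ± 1.12, adjusted p = 0.00017). slc23a4 (ENSDARG00000052497), of the nucleobase and ascorbate transporter family, had 131, 229 and 153 CPM in the PreC_High libraries, against 1.89, 0.546 and 1.47 CPM in the PreC_Low libraries (log2 fold change 7.03 ± 1.49, adjusted p = 0.00205). All 3 were above 100 CPM in PreC_High and under 13 CPM in PreC_Low. prtfdc1a (ENSDARG00000074528), a phosphoribosyltransferase-like gene, rose by 6.78 ± 1.25 on the log2 scale, tmem179bb (ENSDARG00000069495), a transmembrane protein gene, by 6.59 ± 1.40, uraha (ENSDARG00000100719), an enzyme of urate breakdown, by 6.55 ± 1.25 and SLC18B1 (ENSDARG00000044047), a vesicular polyamine transporter in mammals, by 6.53 ± 1.84. apoda.1 came to a log2 fold change of 8.05 without PreC_Low 2, prtfdc1a to 8.18 without PreC_Low 1, tmem179bb to 7.38 without PreC_Low 2 and SLC18B1 to 8.86 without PreC_Low 1.

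Photoreceptor genes fell almost without exception. Of 43 members tested, 41 fell, 0 rose and 2 were not called (median -5.12). GNAT1 (ENSDARG00000044199), rod transducin, had 125, 86.0 and 74.5 CPM in the PreC_High libraries, against 4698, 3629 and 1933 CPM in the PreC_Low libraries (log2 fold change -5.17 ± 0.48, adjusted p = 5.23e-06). CNGA1 (ENSDARG00000012125), the rod cyclic nucleotide-gated channel, had 20.6, 15.5 and 21.7 CPM in the PreC_High libraries, against 867, 986 and 452 CPM in the PreC_Low libraries (log2 fold change -5.32 ± 0.45, adjusted p = 4.58e-06). The fall left transcripts of both genes measurable in each PreC_High library. GUCA1B (ENSDARG00000013393), an activator of guanylate cyclase, fell by a log2 fold change of -5.92 ± 0.52, and pde6ha (ENSDARG00000102558), a cone phosphodiesterase subunit, by -4.90 ± 0.43. The summed level of the list was 1531 to 1968 CPM in PreC_High and 36172 to 73384 CPM in PreC_Low, with the lowest PreC_Low value in PreC_Low 3.

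Genes of retinal neurons were also among the falls. Of 47 inner retina members tested, 30 fell and 1 rose (median -4.12, or -3.69 with genes at 0 in a whole group set to their bounds), and of 43 synapse members, 21 fell and 1 rose (median -2.09). PAX6 (ENSDARG00000103379), a factor of retinal amacrine and ganglion cells, had 2.65, 3.04 and 2.39 CPM in the PreC_High libraries, against 170.3, 112 and 65.3 CPM in the PreC_Low libraries (log2 fold change -5.42 ± 0.74, adjusted p = 6.61e-05). sypb (ENSDARG00000002230), synaptophysin of synaptic vesicles, had 5.70, 6.34 and 2.97 CPM in the PreC_High libraries, against 228, 196 and 119.7 CPM in the PreC_Low libraries (log2 fold change -5.18 ± 0.55, adjusted p = 9.5e-06). INA (ENSDARG00000011862), a neurofilament gene, had a log2 fold change of -5.66 ± 0.81, gnao1b (ENSDARG00000036058), a G protein subunit of neurons, had -3.76 ± 0.51, PROX1 (ENSDARG00000055158), a factor of horizontal cells of the retina and of lymphatic vessels, had -3.03 ± 0.42, and PCLO (ENSDARG00000063299), an active zone protein, had -5.37 ± 0.66. The inner retina member that rose was TBR1 (ENSDARG00000004712), a T-box factor, with 2.47, 0.879 and 2.14 CPM in PreC_High and 0, 0 and 0 CPM in PreC_Low, at least 46.8-fold higher when each PreC_Low library is set to a floor of 3 counts (adjusted p = 0.000282). The synapse member that rose was NRXN3 (ENSDARG00000043746), a presynaptic adhesion gene, with 77.8, 46.1 and 71.7 CPM in PreC_High and 23.8, 20.4 and 8.66 CPM in PreC_Low (log2 fold change 1.89 ± 0.65, adjusted p = 0.0370). That call was lost for NRXN3 without PreC_High 1, PreC_High 3, PreC_Low 1, PreC_Low 2 or PreC_Low 3 (highest adjusted p = 0.109). PCLO came to a log2 fold change of -5.96 without PreC_High 1.

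Müller glia and astroglia members numbered 18 lower and 5 higher of 40 tested (median -2.096). ptgdsb.2 (ENSDARG00000071626), a lipocalin-type prostaglandin D synthase, had 25.2, 14.1 and 13.8 CPM in the PreC_High libraries, against 384, 395 and 229 CPM in the PreC_Low libraries (log2 fold change -4.25 ± 0.35, adjusted p = 4.58e-06). apoeb (ENSDARG00000040295), apolipoprotein E, had 333, 261 and 428 CPM in the PreC_High libraries, against 3207, 2833 and 1790.3 CPM in the PreC_Low libraries (log2 fold change -2.94 ± 0.35, adjusted p = 2.46e-05). GLUL (ENSDARG00000099776), glutamine synthetase, had a log2 fold change of -2.81 ± 0.39, SLC1A2 (ENSDARG00000102453), a glutamate transporter, had -4.58 ± 0.57, and GFAP (ENSDARG00000025301), the astroglial filament, had -2.02 ± 0.35. The members that rose were S100B, described above, ID1 (ENSDARG00000040764), ID2 (ENSDARG00000055283), VIM (ENSDARG00000010008) and CAVIN1 (ENSDARG00000059362), none of which is confined to glia. ID1 and ID2, inhibitors of basic helix-loop-helix factors, had 1125, 748 and 775 CPM in PreC_High and 217, 299 and 172 CPM in PreC_Low for ID1 (log2 fold change 1.95 ± 0.29, adjusted p = 0.000132) and 211, 273 and 211 CPM in PreC_High and 39.9, 43.4 and 37.3 CPM in PreC_Low for ID2 (log2 fold change 2.53 ± 0.34, adjusted p = 6.17e-05). VIM (ENSDARG00000010008), vimentin, had 373, 303 and 334 CPM in PreC_High and 56.4, 69.9 and 39.8 CPM in PreC_Low (log2 fold change 2.60 ± 0.79, adjusted p = 0.0196). The call was lost for VIM (ENSDARG00000010008) without PreC_Low 1 or PreC_Low 3 (highest adjusted p = 0.0601) and CAVIN1 (ENSDARG00000059362) without PreC_Low 3 (highest adjusted p = 0.0516), and the count of rises was 3 without PreC_Low 3.

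Blood cell genes included falls in each list. Falls numbered 28 of 37 macrophage and microglia members (median -3.24), 20 of 24 neutrophil members (median -3.27), 31 of 39 T and NK cell members (median -4.83) and 13 of 19 B cell members (median -4.04). With 1 library left out, falls numbered 25 to 28, 15 to 19, 22 to 28 and 12 to 14 in the same order. Calls kept without each of the 6 libraries numbered 25, 16, 16 and 11. Of these 4 lists, only the neutrophil list held a rise, of TIMP2 (ENSDARG00000061226), a metalloproteinase inhibitor that the fibroblast list also holds. ptprc (ENSDARG00000071437), the pan-leukocyte phosphatase CD45, had 13.4, 25.8 and 21.7 CPM in the PreC_High libraries, against 283, 367 and 381 CPM in the PreC_Low libraries (log2 fold change -4.08 ± 0.42, adjusted p = 8.55e-06). SPI1 (ENSDARG00000000767), PU.1 of the myeloid lineage, had 3.18, 4.03 and 3.06 CPM in the PreC_High libraries, against 63.7, 56.9 and 33.3 CPM in the PreC_Low libraries (log2 fold change -3.90 ± 0.43, adjusted p = 1.19e-05). MPEG1 (ENSDARG00000055290), the macrophage perforin, had 4.48, 8.42 and 7.62 CPM in the PreC_High libraries, against 72.5, 109.6 and 53.2 CPM in the PreC_Low libraries (log2 fold change -3.52 ± 0.43, adjusted p = 3.08e-05). None of these 3 genes was at 0 in a PreC_High library. The summed level was 879 to 1216 CPM in PreC_High and 3979 to 5943 CPM in PreC_Low for the macrophage list, and 110.1 to 196 CPM and 1582 to 3945 CPM in the same order of groups for the T and NK cell list.

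Among the falls were lymphocyte genes. CCR9 (ENSDARG00000055186), a receptor that guides T-cell precursors, had 7.05, 11.999 and 18.3 CPM in the PreC_High libraries, against 271, 343 and 381 CPM in the PreC_Low libraries (log2 fold change -4.74 ± 0.48, adjusted p = 7.75e-06). bcl11ba (ENSDARG00000062510), a T-cell commitment factor, had a log2 fold change of -5.38 ± 0.67, il2rga (ENSDARG00000068858), the gamma chain shared by several interleukin receptors, had -5.03 ± 0.54, and blk (ENSDARG00000007783), a Src family kinase of B cells, had -5.19 ± 0.68. Erythrocyte and thrombocyte genes fell in 13 of 18 members (median -4.11, or -3.64 with bounds), and in 8 of 18 without PreC_High 2. itga2b (ENSDARG00000018687), the thrombocyte integrin, had 0.155, 1.08 and 0.389 CPM in PreC_High and 29.0, 49.2 and 23.3 CPM in PreC_Low (log2 fold change -5.96 ± 0.90, adjusted p = 0.000144). bcl11ba came to a log2 fold change of -6.08 without PreC_High 3, bcl11ba to -4.70 without PreC_Low 3, blk to -6.09 without PreC_High 1 and itga2b to -6.96 without PreC_High 2.

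RAG1 and RAG2, genes of developing thymocytes, set tissue 3 apart in both gates. RAG1 (ENSDARG00000052122), a subunit of the recombinase that assembles antigen receptor genes, had 0, 0 and 29.7 CPM in the PreC_High libraries, against 0.262, 0.330 and 1110.0 CPM in the PreC_Low libraries. The partner subunit RAG2 (ENSDARG00000052121) had 0.353, 0.313 and 36.5 CPM in the PreC_High libraries, against 0, 0.172 and 1019.9 CPM in the PreC_Low libraries. In tissue 3 the PreC_High library held 2.68% of the PreC_Low level of RAG1 and 3.58% of that of RAG2, and the 4 libraries of the other tissues stayed under 1 CPM. Neither gene was called (adjusted p = 0.147 for RAG1 and 0.146 for RAG2). With the tissue as a block RAG1 was called (adjusted p = 0.00163) and RAG2 was not (0.928). Without PreC_Low 3, RAG2 was called higher in PreC_High (log2 fold change 7.15, adjusted p = 0.0381), a value that rests on PreC_High 3. Without PreC_High 3 both genes were called lower in PreC_High (adjusted p = 0.0173 for RAG1 and 0.0417 for RAG2). Not every gene of the thymocyte list set tissue 3 apart in this way. Levels in PreC_Low 1, 2 and 3 were 36.6, 49.2 and 121 CPM for bcl11ba and 31.0, 36.7 and 88.7 CPM for TCF7 (ENSDARG00000038672). Both were thus present in each PreC_Low library and highest in PreC_Low 3. CCR9 (ENSDARG00000055186), given above, was high in all 3 PreC_Low libraries. CXCR4 (ENSDARG00000041959), a chemokine receptor named here after its values were seen, had 19.6, 16.9 and 12.1 CPM in PreC_High and 260.8, 289 and 124 CPM in PreC_Low.

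Several T-cell receptor signalling genes were lower in PreC_High in every tissue and highest in PreC_Low 3. cd4-1 (ENSDARG00000070668), the co-receptor of helper T cells, had 0, 0.289 and 7.67 CPM in the PreC_High libraries, against 12.5, 16.99 and 289.5 CPM in the PreC_Low libraries (log2 fold change -5.33 ± 1.74, adjusted p = 0.0277). lck (ENSDARG00000102525), its kinase, had 0.928, 0.457 and 14.7 CPM in the PreC_High libraries, against 31.5, 46.1 and 382 CPM in the PreC_Low libraries (log2 fold change -4.84 ± 1.36, adjusted p = 0.0130). cd8a (ENSDARG00000044797), the co-receptor of cytotoxic T cells, had 0, 0.457 and 5.80 CPM in PreC_High and 5.60, 15.9 and 156 CPM in PreC_Low (log2 fold change -4.83 ± 1.68, adjusted p = 0.0369). PreC_Low 3 was at least 8 times the other PreC_Low libraries in each. The call was lost for cd4-1 without PreC_High 1, PreC_High 2 or PreC_Low 3 (highest adjusted p = 0.214), cd8a without PreC_High 1, PreC_High 2 or PreC_Low 3 (highest adjusted p = 0.259) and lck without PreC_Low 3 (highest adjusted p = 0.0809). Without PreC_Low 3 the log2 fold changes were -2.48 for cd4-1, -2.36 for cd8a and -2.85 for lck, and without PreC_High 3 they were -9.53, -8.02 and -7.79 in the same order. Of 20 thymocyte members, 12 fell and 0 rose (median -4.76), and 8 to 15 fell when 1 library was left out. Without PreC_Low 3, 9 fell and 2 rose.

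**Figure D3:**
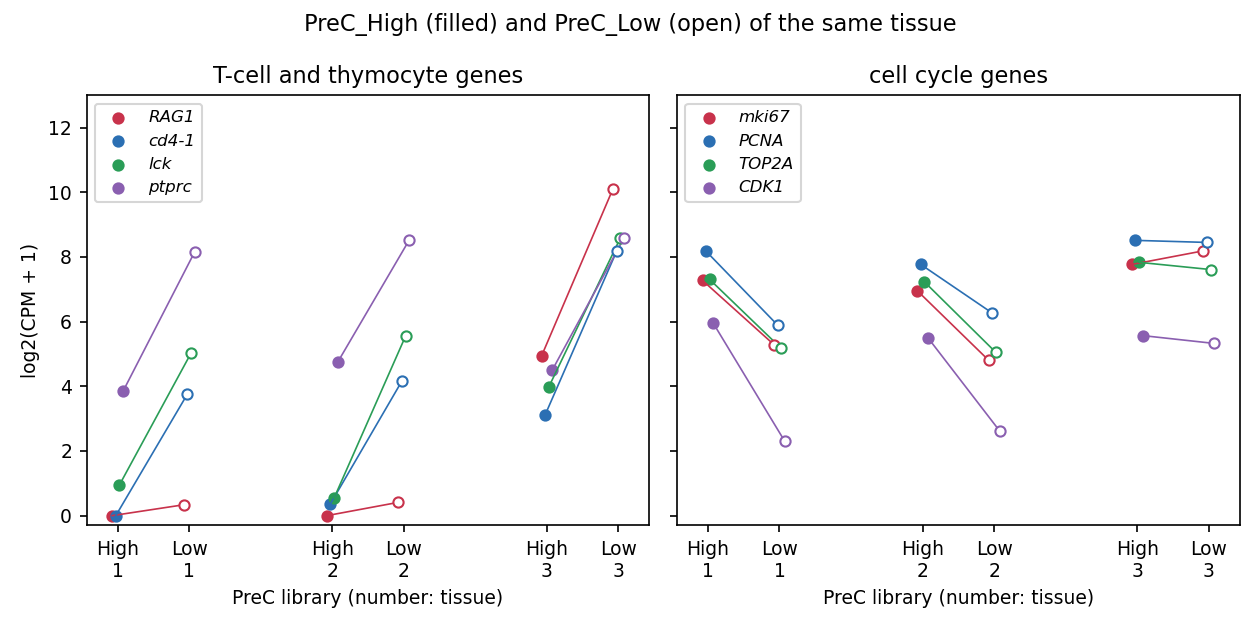
log2(CPM + 1) of 4 T-cell and thymocyte genes (left panel) and 4 cell cycle genes (right panel) in PreC_High (filled) and PreC_Low (open) of each tissue, with lines joining the 2 libraries of a tissue. RAG1 is above 1 CPM only in tissue 3, and the cell cycle genes are lower in PreC_Low than in PreC_High in tissues 1 and 2 but not clearly in tissue 3.

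Of vessel genes, most endothelial members fell. Of 28 endothelial members tested, 20 fell, 0 rose and 8 were not called (median -3.34), and of 23 pericyte and smooth muscle members, 9 fell, 13 were not called and 1 rose (median -1.72), MYLK (ENSDARG00000004753), a myosin light chain kinase, with 8.49, 3.48 and 3.92 CPM in PreC_High and 0.0656, 0.0574 and 0.291 CPM in PreC_Low (log2 fold change 5.23 ± 1.31, adjusted p = 0.00634). KDR (ENSDARG00000017321), a VEGF receptor, had 1.79, 1.62 and 2.22 CPM in the PreC_High libraries, against 18.4, 19.2 and 18.4 CPM in the PreC_Low libraries (log2 fold change -3.31 ± 0.56, adjusted p = 0.00036). RGS5 (ENSDARG00000002644), a regulator of G protein signalling in pericytes, had 20.6, 13.8 and 34.2 CPM in the PreC_High libraries, against 388, 439.7 and 239 CPM in the PreC_Low libraries (log2 fold change -3.96 ± 0.54, adjusted p = 6.36e-05). plvapb (ENSDARG00000045003), a protein of fenestrated endothelium, had a log2 fold change of -3.26 ± 0.58 and stab2 (ENSDARG00000045748), a scavenger receptor, of -6.33 ± 1.19. MYLK (ENSDARG00000004753) came to a log2 fold change of 6.39 without PreC_Low 3 and stab2 to -7.69 without PreC_High 1.

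Fibroblast and matrix genes had 22 falls and 3 rises in 41 members (median -2.37). col1a1a (ENSDARG00000012405), collagen type I, had 39.2, 22.9 and 34.2 CPM in the PreC_High libraries, against 698, 958 and 339 CPM in the PreC_Low libraries (log2 fold change -4.37 ± 0.70, adjusted p = 0.000218). POSTN (ENSDARG00000104267), periostin, had 12.8, 6.46 and 4.68 CPM in the PreC_High libraries, against 312, 354 and 139 CPM in the PreC_Low libraries (log2 fold change -5.07 ± 0.58, adjusted p = 1.57e-05), FN1 (ENSDARG00000019815), fibronectin, had a log2 fold change of -4.73 ± 0.59 and CXCL12 (ENSDARG00000037116), a stromal chemokine, of -3.98 ± 0.58. TIMP2 (ENSDARG00000061226) went the other way, with 502, 441 and 522 CPM in PreC_High and 68.4, 65.0 and 43.3 CPM in PreC_Low (log2 fold change 3.05 ± 0.68, adjusted p = 0.00276). The other rises were COL12A1 (ENSDARG00000078322), a collagen that binds collagen fibrils, and LOXL2 (ENSDARG00000044074), a lysyl oxidase, with log2 fold changes of 2.22 ± 0.78 and 1.65 ± 0.57. These calls were lost for COL12A1 (ENSDARG00000078322) without PreC_High 1, PreC_High 2, PreC_Low 1, PreC_Low 2 or PreC_Low 3 (highest adjusted p = 0.110) and LOXL2 without PreC_High 1, PreC_High 3, PreC_Low 1 or PreC_Low 3 (highest adjusted p = 0.122), and that of LOXL2 with the tissue as a block (adjusted p = 0.0730).

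Basement membrane genes of Schwann cells and other glia numbered 3 rises and 10 falls in 28 members (median -0.89). ITGB4 (ENSDARG00000028507), an integrin of Schwann and epithelial cells, had 45.5, 32.8 and 20.3 CPM in PreC_High and 478, 460.0 and 177 CPM in PreC_Low (log2 fold change -3.50 ± 0.52, adjusted p = 0.000131), and the collagen type IV genes col4a5 (ENSDARG00000052063) and col4a6 (ENSDARG00000052061) had log2 fold changes of -4.40 ± 0.73 and -4.53 ± 0.78. lama4 (ENSDARG00000020785), a laminin chain of Schwann cell and vessel basement membranes, had 146, 274 and 163 CPM in PreC_High and 55.1, 84.6 and 50.6 CPM in PreC_Low (log2 fold change 1.62 ± 0.57, adjusted p = 0.0386), and the other rises were ITGB1 (ENSDARG00000071863), integrin beta 1, and SGCD (ENSDARG00000098573), a sarcoglycan, with log2 fold changes of 1.54 ± 0.55 and 2.29 ± 0.71. These calls were lost for lama4 without PreC_High 2, PreC_High 3, PreC_Low 1, PreC_Low 2 or PreC_Low 3 (highest adjusted p = 0.129), ITGB1 (ENSDARG00000071863) without PreC_High 1, PreC_High 2, PreC_High 3, PreC_Low 1, PreC_Low 2 or PreC_Low 3 (highest adjusted p = 0.124) and SGCD without PreC_High 2, PreC_Low 2 or PreC_Low 3 (highest adjusted p = 0.0820), which leaves 0 rises without PreC_High 2, PreC_Low 2 or PreC_Low 3. Another ID of the integrin beta 1 symbol, ITGB1 (ENSDARG00000053232), was called lower in PreC_High (adjusted p = 0.00135) and stayed called without any 1 library. It had 4.38, 4.78 and 2.50 CPM in PreC_High and 21.2, 21.6 and 10.7 CPM in PreC_Low. Skeletal muscle genes had 5 falls in 27 members (median 0.00), 2 without PreC_High 1, PreC_Low 1 or PreC_Low 2, at a summed 28.91 to 84.2 CPM in PreC_High and 25.6 to 39.4 CPM in PreC_Low. Lens genes had 2 falls and 0 rises in 17 (median -2.54), the falls being of the crystallin genes CRYBA1 (ENSDARG00000041141) and CRYBB3 (ENSDARG00000041301). Without PreC_Low 1 there were 1 fall and 1 rise. The call was lost for CRYBB3 without PreC_High 2 or PreC_Low 1 (highest adjusted p = 0.0686). col4a5 came to a log2 fold change of -5.09 without PreC_High 1.

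Keratins divided by type. Of 37 epithelial and keratin members tested, 31 fell and 3 rose (median -3.84, or -3.80 with bounds). krt5 (ENSDARG00000058371), a keratin of stratified epithelium, had 468, 687 and 492 CPM in the PreC_High libraries, against 15612, 10464 and 6722 CPM in the PreC_Low libraries (log2 fold change -4.32 ± 0.40, adjusted p = 5.23e-06). epcam (ENSDARG00000040534), an epithelial adhesion molecule, had 24.3, 33.6 and 15.9 CPM in the PreC_High libraries, against 484, 382 and 233 CPM in the PreC_Low libraries (log2 fold change -3.89 ± 0.58, adjusted p = 0.000131). krt15 (ENSDARG00000036840), another keratin, had a log2 fold change of -4.76 ± 0.53. The 3 rises were keratins of simple epithelium. krt8 (ENSDARG00000058358) had 4555, 4471 and 3389.7 CPM in the PreC_High libraries, against 784, 658 and 303 CPM in the PreC_Low libraries (log2 fold change 2.83 ± 0.42, adjusted p = 0.000125). krt18b (ENSDARG00000028618) had 1606, 969 and 1078 CPM in PreC_High and 343, 240.1 and 128 CPM in PreC_Low (log2 fold change 2.36 ± 0.44, adjusted p = 0.000823). krt18a.1 (ENSDARG00000018404) had 423, 254 and 341 CPM in PreC_High and 59.1, 51.2 and 37.6 CPM in PreC_Low (log2 fold change 2.78 ± 0.59, adjusted p = 0.00213). Every PreC_High library exceeded every PreC_Low library for these 3 and lay below every PreC_Low library for krt5, epcam and krt15.

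**Figure D4:**
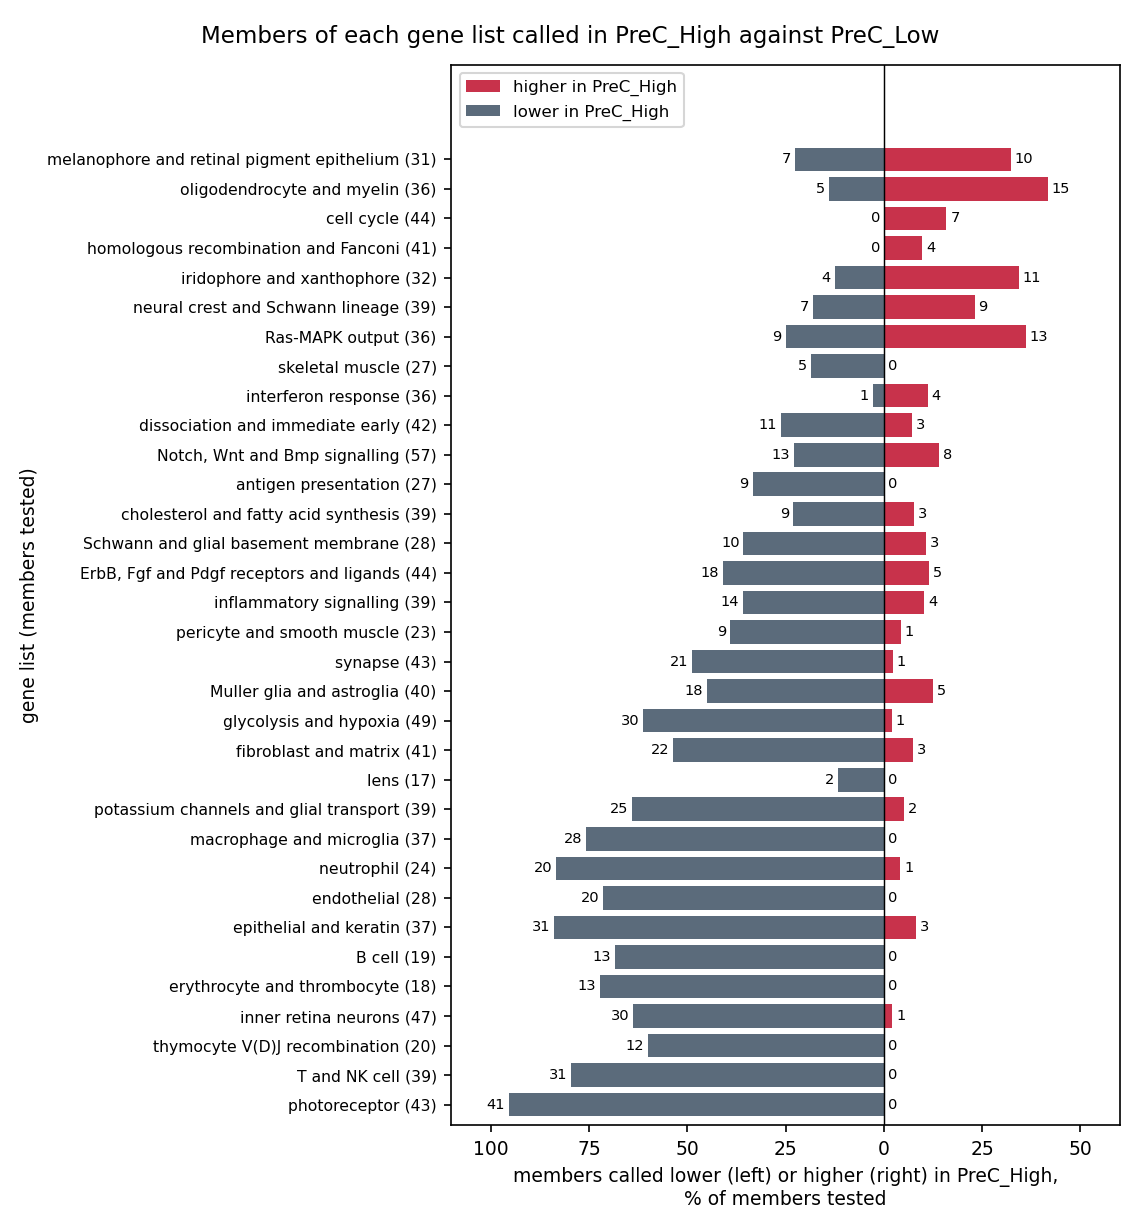
Share of the tested members of each of the 33 gene lists called higher (red, to the right) or lower (grey, to the left) in PreC_High, ordered by the median log2 fold change of the list, with the number of members beside each bar. Among all 23299 genes tested, 9.28% were higher and 22.0% lower.

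Cell cycle genes depended on PreC_Low 3. Of 44 members tested, 7 rose and 0 fell (median 0.98). With PreC_Low 3 left out, 37 rose, and with any other single library left out, 2 to 4 rose. The tissue as a block gave 27. mki67 (ENSDARG00000091150), the proliferation marker, had 154, 123 and 217 CPM in the PreC_High libraries, against 37.96, 26.9 and 291 CPM in the PreC_Low libraries and was not called (log2 fold change 0.47 ± 0.62, adjusted p = 0.589). TOP2A (ENSDARG00000024488), the mitotic topoisomerase, had 157, 149 and 227 CPM in the PreC_High libraries, against 35.0, 32.0 and 195 CPM in the PreC_Low libraries (log2 fold change 1.03 ± 0.55, adjusted p = 0.166), and was called with the block (adjusted p = 0.0385). CDK1 (ENSDARG00000087554), the mitotic kinase, had 60.8, 44.3 and 46.5 CPM in the PreC_High libraries, against 3.91, 5.17 and 39.1 CPM in the PreC_Low libraries (log2 fold change 1.65 ± 0.63, adjusted p = 0.0562; with the block, adjusted p = 0.0173). PCNA (ENSDARG00000054155), the replication clamp, had 288, 217 and 364 CPM in PreC_High and 58.3, 75.8 and 349 CPM in PreC_Low (log2 fold change 0.85 ± 0.53, adjusted p = 0.236; with the block, adjusted p = 0.0492). Without PreC_Low 3 all 4 were called, with log2 fold changes of 2.34 for mki67, 2.41 for TOP2A, 3.48 for CDK1 and 2.11 for PCNA. PreC_High values differed less than 2-fold between tissues in these 4 genes, while PreC_Low 3 was several times PreC_Low 1 and PreC_Low 2. PreC_Low 3 also stood that far above them for RAG1, RAG2, cd4-1, lck and cd8a, but not for CCR9 (ENSDARG00000055186) or CXCR4 (ENSDARG00000041959). The part of the thymocyte transcripts in this was not tested.

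Of the cell cycle genes that were called, BIRC5 (ENSDARG00000075621), survivin, had 51.4, 32.9 and 31.7 CPM in the PreC_High libraries, against 4.91, 2.99 and 12.9 CPM in the PreC_Low libraries (log2 fold change 2.48 ± 0.66, adjusted p = 0.00964). ndc80 (ENSDARG00000071694), a kinetochore subunit, had 44.7, 37.3 and 53.6 CPM in the PreC_High libraries, against 4.09, 12.5 and 24.3 CPM in the PreC_Low libraries (log2 fold change 1.73 ± 0.48, adjusted p = 0.0125). Both stayed called without any 1 library. MCM7 (ENSDARG00000101180), a replicative helicase subunit, had 277, 299.6 and 242 CPM in PreC_High and 48.3, 63.9 and 216 CPM in PreC_Low (log2 fold change 1.32 ± 0.43, adjusted p = 0.0265), with a log2 fold change of 2.28 without PreC_Low 3 and a call that was lost for MCM7 without PreC_High 1, PreC_High 2, PreC_Low 1 or PreC_Low 2 (highest adjusted p = 0.112). BIRC5 came to a log2 fold change of 3.29 without PreC_Low 3 and ndc80 to 2.45 without PreC_Low 3.

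Genes of homologous recombination and the Fanconi pathway, in which brca2 acts, numbered 4 rises and 0 falls in 41 members (median 0.62). The rises were about as frequent as among all genes (9.28%), whereas 22.0% of all genes fell. With PreC_Low 3 left out 16 rose, and without PreC_High 2, PreC_High 3, PreC_Low 1 or PreC_Low 2 there were 2. RPA3 (ENSDARG00000002613), a subunit of the single-strand binding complex, had 27.6, 33.0 and 34.7 CPM in the PreC_High libraries, against 4.67, 4.91 and 14.9 CPM in the PreC_Low libraries (log2 fold change 1.96 ± 0.48, adjusted p = 0.00552). FANCI (ENSDARG00000026224), which is ubiquitinated in crosslink repair, had 10.3, 15.4 and 29.2 CPM in the PreC_High libraries, against 2.89, 4.02 and 7.501 CPM in the PreC_Low libraries (log2 fold change 1.93 ± 0.49, adjusted p = 0.00678). The groups did not overlap in either gene. RPA2 (ENSDARG00000037188), the partner of RPA3, also rose (log2 fold change 1.202 ± 0.44, and 2.12 without PreC_Low 3). The call was lost for RPA2 without PreC_High 1, PreC_High 2, PreC_High 3, PreC_Low 1 or PreC_Low 2 (highest adjusted p = 0.172). RPA3 came to a log2 fold change of 2.73 without PreC_Low 3.

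Of receptor tyrosine kinase genes and their ligands, more fell than rose. Of 44 ErbB, Fgf and Pdgf receptor and ligand members tested, 5 rose and 18 fell (median -1.07). The rises were about as frequent as among all genes (9.28%), and falls were more frequent (22.0% among all genes). The rises were ltk, described above, MET, egf, TGFA and 1 ERBB4 gene. MET (ENSDARG00000070903), the receptor for hepatocyte growth factor, had 221, 175 and 239 CPM in the PreC_High libraries, against 4.81, 0.632 and 2.12 CPM in the PreC_Low libraries (log2 fold change 6.39 ± 1.26, adjusted p = 0.00118). The rises of egf and TGFA were of 2 ligand genes of the EGF receptor. egf (ENSDARG00000052739) had 210.1, 211 and 168 CPM in the PreC_High libraries, against 9.63, 8.62 and 6.42 CPM in the PreC_Low libraries (log2 fold change 4.58 ± 1.14, adjusted p = 0.00623). TGFA (ENSDARG00000053939), transforming growth factor alpha, had 116, 87.2 and 93.4 CPM in the PreC_High libraries, against 4.26, 2.41 and 0.768 CPM in the PreC_Low libraries (log2 fold change 5.32 ± 1.12, adjusted p = 0.00199). ERBB4 (ENSDARG00000063207), a receptor of the same family, had 1.61, 1.55 and 2.06 CPM in PreC_High and 0.131, 0.0287 and 0.0116 CPM in PreC_Low (log2 fold change 4.89 ± 1.42, adjusted p = 0.0151), a call that was lost for ERBB4 (ENSDARG00000063207) without PreC_Low 2 (highest adjusted p = 0.0541). The receptor for egf and TGFA, EGFR (ENSDARG00000013847), was on the other side, with 12.4, 10.1 and 7.95 CPM in the PreC_High libraries, against 103, 101 and 39.6 CPM in the PreC_Low libraries (log2 fold change -3.001 ± 0.57, adjusted p = 0.000882). So was NRG1 (ENSDARG00000104314), neuregulin, the axonal ligand of Schwann cell ErbB receptors, with 2.31, 2.92 and 0.348 CPM in the PreC_High libraries, against 50.9, 48.5 and 19.7 CPM in the PreC_Low libraries (log2 fold change -4.41 ± 0.81, adjusted p = 0.000686). kitb (ENSDARG00000056133), a Kit receptor, and PDGFD (ENSDARG00000077677), a platelet-derived growth factor, had log2 fold changes of -3.99 ± 0.62 and -3.55 ± 0.50. MET came to a log2 fold change of 7.26 without PreC_Low 1, TGFA to 5.96 without PreC_Low 1 and ERBB4 (ENSDARG00000063207) to 6.34 without PreC_Low 1.

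Regulators of Ras signalling moved both ways. Of 36 Ras-MAPK output members tested, 13 rose and 9 fell (median 0.45), with 8 rises without PreC_Low 1 or PreC_Low 2 and 5 falls without PreC_High 1, PreC_High 2 or PreC_Low 2. The share of rises was above the 9.28% of all genes, and that of falls was close to the 22.0% of all genes. DUSP4 (ENSDARG00000044688), a MAPK phosphatase, had 58.7, 87.8 and 69.3 CPM in the PreC_High libraries, against 14.8, 11.09 and 6.57 CPM in the PreC_Low libraries (log2 fold change 2.73 ± 0.39, adjusted p = 0.000103). HRAS (ENSDARG00000005651), a Ras GTPase, had 25.4, 16.3 and 19.4 CPM in PreC_High and 6.51, 4.28 and 3.15 CPM in PreC_Low (log2 fold change 2.13 ± 0.37, adjusted p = 0.000435). ETV4 (ENSDARG00000018303), an ETS factor downstream of Fgf and MAPK signals, had 103, 84.1 and 97.2 CPM in PreC_High and 28.93, 23.98 and 20.9 CPM in PreC_Low (log2 fold change 1.94 ± 0.53, adjusted p = 0.0105). spred2a (ENSDARG00000052435), an inhibitor of Ras activation, rose by 1.94 ± 0.50 on the log2 scale, and the Ras GTPase-activating genes RASA1 (ENSDARG00000035535) and RASA1 (ENSDARG00000073665) rose by 1.15 ± 0.24 and 1.73 ± 0.36.

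NF1 (ENSDARG00000004184), the Ras GTPase-activating protein whose loss underlies human nerve sheath tumours, had 84.9, 76.4 and 90.0 CPM in the PreC_High libraries, against 26.8, 20.4 and 49.7 CPM in the PreC_Low libraries (log2 fold change 1.37 ± 0.44, adjusted p = 0.0267). The groups did not overlap, and the call was lost for NF1 (ENSDARG00000004184) without PreC_High 1, PreC_High 3, PreC_Low 1 or PreC_Low 2 (highest adjusted p = 0.109). Other feedback genes fell. IL17RD (ENSDARG00000098359), an inhibitor of Fgf signalling, had 2.23, 1.18 and 0.751 CPM in PreC_High and 23.5, 20.3 and 14.4 CPM in PreC_Low (log2 fold change -3.80 ± 0.56, adjusted p = 0.000114). SPRED3 (ENSDARG00000040358), of the Spred family, had 0, 0.0722 and 0.0139 CPM in PreC_High and 3.201, 3.13 and 1.88 CPM in PreC_Low (log2 fold change -6.50 ± 1.26, adjusted p = 0.00103). DUSP5 (ENSDARG00000019307), a nuclear ERK phosphatase, had a log2 fold change of -2.27 ± 0.53. SPRED3 came to a log2 fold change of -8.40 without PreC_High 2.

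Notch, Wnt and Bmp signalling genes showed 8 rises and 13 falls in 57 members (median -0.21). Falls were about as frequent as among all genes (22.0%), and rises somewhat more frequent (9.28% among all genes). FZD7 (ENSDARG00000027589), a Wnt receptor, had 172, 164 and 177 CPM in the PreC_High libraries, against 18.5, 16.1 and 9.20 CPM in the PreC_Low libraries (log2 fold change 3.55 ± 0.95, adjusted p = 0.00969). TCF7L1 (ENSDARG00000038159), a transcription factor of the Wnt pathway, had 342, 223 and 239.7 CPM in the PreC_High libraries, against 32.0, 26.0 and 16.9 CPM in the PreC_Low libraries (log2 fold change 3.43 ± 0.61, adjusted p = 0.000551). id2b (ENSDARG00000029544), a Bmp-responsive inhibitor of helix-loop-helix factors, rose by 3.09 ± 0.44 on the log2 scale. The ligand gene WNT8B (ENSDARG00000006911) had 4.25, 4.69 and 8.01 CPM in PreC_High and 0 in each PreC_Low library, at least 145-fold higher on the floor of 3 counts (adjusted p = 0.00263), and heyl (ENSDARG00000055798), a Notch target factor, was at least 29.9998-fold higher in the same way (adjusted p = 0.00966). Falls included NOTCH3 (ENSDARG00000052139), the Notch receptor of mural cells, with 13.2, 10.36 and 19.5 CPM in PreC_High and 104, 93.0 and 58.7 CPM in PreC_Low (log2 fold change -2.57 ± 0.41, adjusted p = 0.000206), the Wnt inhibitor SFRP1 (ENSDARG00000057678) (log2 fold change -4.13 ± 0.59) and the ligand BMP2 (ENSDARG00000041430) (-5.74 ± 1.33). BMP2 (ENSDARG00000041430) came to a log2 fold change of -5.15 without PreC_High 1 and BMP2 (ENSDARG00000041430) to -6.97 without PreC_High 3.

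Most interferon response genes were not called. Of 36 interferon response members tested, 4 rose, 1 fell and 31 were not called (median -0.03), and 8 rose with the tissue as a block. The rises were about as frequent as among all genes (9.28%), and falls were rarer (22.0% among all genes). mxc (ENSDARG00000024789), an antiviral GTPase, had 54.8, 67.2 and 68.9 CPM in the PreC_High libraries, against 9.97, 22.9 and 15.3 CPM in the PreC_Low libraries (log2 fold change 1.99 ± 0.52, adjusted p = 0.00884). irf9 (ENSDARG00000016457), a subunit of the interferon-activated factor, had 33.3, 45.3 and 25.7 CPM in PreC_High and 15.2, 18.4 and 13.1 CPM in PreC_Low (log2 fold change 1.16 ± 0.31, adjusted p = 0.00912). isg15 (ENSDARG00000086374), a ubiquitin-like protein, had 159, 311 and 229 CPM in PreC_High and 17.5, 56.4 and 77.7 CPM in PreC_Low (log2 fold change 2.205 ± 0.66, adjusted p = 0.0178), and ifit16 (ENSDARG00000056976) a log2 fold change of 2.45 ± 0.70. The fall was of the chemokine gene cxcl11.3 (ENSDARG00000102514) (log2 fold change -2.44 ± 0.68). The call was lost for isg15 without PreC_High 2 or PreC_Low 1 (highest adjusted p = 0.0725) and cxcl11.3 without PreC_High 1 or PreC_Low 2 (highest adjusted p = 0.0652). Antigen presentation genes had 0 rises and 9 falls in 27 members (median -0.36), and without PreC_Low 3 they had 2 rises and 6 falls. mhc2dab (ENSDARG00000079105), an MHC class II chain, had 15.7, 31.4 and 23.0 CPM in the PreC_High libraries, against 284, 375 and 162 CPM in the PreC_Low libraries (log2 fold change -3.55 ± 0.60, adjusted p = 0.000367). cd74a (ENSDARG00000009087), the invariant chain, had 127, 184 and 159 CPM in the PreC_High libraries, against 1278, 1756 and 773 CPM in the PreC_Low libraries (log2 fold change -3.02 ± 0.56, adjusted p = 0.000703). cxcl11.3 came to a log2 fold change of -3.03 without PreC_High 3.

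Of 39 inflammatory signalling members tested, 14 fell, 4 rose and 21 were not called (median -1.46). PTGS2 (ENSDARG00000004539), cyclooxygenase, had 14.4, 20.6 and 20.7 CPM in the PreC_High libraries, against 359, 323 and 254 CPM in the PreC_Low libraries (log2 fold change -4.07 ± 0.42, adjusted p = 8.96e-06). il1b (ENSDARG00000098700), interleukin 1 beta, had 5.21, 3.57 and 10.2 CPM in PreC_High and 51.4, 49.4 and 52.8 CPM in PreC_Low (log2 fold change -3.01 ± 0.66, adjusted p = 0.00264). tnfb (ENSDARG00000013598), a tumour necrosis factor, had a log2 fold change of -3.01 ± 0.63. cxcl18b (ENSDARG00000075045), a chemokine, rose, with 152, 157 and 92.7 CPM in PreC_High and 41.7, 45.0 and 30.5 CPM in PreC_Low (log2 fold change 1.78 ± 0.49, adjusted p = 0.0109). The other rises were nfkbiab (ENSDARG00000007693), an inhibitor of NF-kappa B (log2 fold change 1.18 ± 0.34), nfkb2 (ENSDARG00000038687), a subunit (1.40 ± 0.49), and irg1l (ENSDARG00000062788), an itaconate enzyme gene (3.48 ± 1.19). Their calls were lost for nfkbiab without PreC_High 2 or PreC_Low 3 (highest adjusted p = 0.0578), nfkb2 without PreC_High 1, PreC_High 2, PreC_High 3, PreC_Low 1, PreC_Low 2 or PreC_Low 3 (highest adjusted p = 0.117) and irg1l without PreC_High 1, PreC_High 2, PreC_Low 1, PreC_Low 2 or PreC_Low 3 (highest adjusted p = 0.0959). The count of rises was 1 without PreC_High 2 or PreC_Low 3 and 2 without PreC_High 1, PreC_Low 1 or PreC_Low 2.

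Genes that respond to tissue dissociation were called about as often as all genes. Of 42 dissociation and immediate early members tested, 3 rose, 11 fell and 28 were not called (median -0.11), with 7 falls without PreC_High 3 or PreC_Low 2. JUN (ENSDARG00000043531), an AP-1 subunit, had 3667, 4067 and 1919 CPM in the PreC_High libraries, against 967, 1155 and 537 CPM in the PreC_Low libraries (log2 fold change 1.86 ± 0.40, adjusted p = 0.00242). The other rises were IER5L (ENSDARG00000054906), an early response gene (log2 fold change 1.70 ± 0.37), and dnajb1b (ENSDARG00000041394), a heat shock co-chaperone (2.25 ± 0.80), whose call was lost for dnajb1b without PreC_High 1, PreC_High 2, PreC_Low 1, PreC_Low 2 or PreC_Low 3 (highest adjusted p = 0.116). klf2a (ENSDARG00000042667) and KLF4 (ENSDARG00000079922), Krüppel-like factors, fell, with 11.11, 14.03 and 11.27 CPM in PreC_High and 224, 208 and 87.3 CPM in PreC_Low for klf2a (log2 fold change -3.84 ± 0.45, adjusted p = 2e-05) and a log2 fold change of -2.86 ± 0.48 for KLF4. DUSP1 (ENSDARG00000100515), an early MAPK phosphatase, and NR4A1 (ENSDARG00000000796), a nuclear receptor, had log2 fold changes of -2.47 ± 0.40 and -2.51 ± 0.60. PreC_High 3 was the lowest of the PreC_High libraries for JUN, and PreC_Low 3 the lowest of the PreC_Low libraries.

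Most glycolysis and hypoxia genes fell, with 30 falls and 1 rise in 49 members (median -2.099). PFKP (ENSDARG00000012801), a phosphofructokinase, had 10.6, 5.19 and 9.79 CPM in the PreC_High libraries, against 231, 247 and 169 CPM in the PreC_Low libraries (log2 fold change -4.66 ± 0.42, adjusted p = 5.23e-06). ENO1 (ENSDARG00000013750), an enolase, had 17.3, 7.22 and 9.40 CPM in the PreC_High libraries, against 308, 261 and 157 CPM in the PreC_Low libraries (log2 fold change -4.42 ± 0.55, adjusted p = 3.27e-05). ALDOC (ENSDARG00000019702), the neural aldolase, had a log2 fold change of -3.04 ± 0.39 and PDK2 (ENSDARG00000059054), a kinase of pyruvate dehydrogenase, of -3.10 ± 0.40. The rise was of BNIP3 (ENSDARG00000099961), a mitophagy receptor, with a log2 fold change of 1.62 ± 0.50 and a call that was lost for BNIP3 without PreC_High 3, PreC_Low 1 or PreC_Low 2 (highest adjusted p = 0.0708). Photoreceptor transcripts fell in the same libraries, and their part in the glycolysis result was not tested.

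Lipid synthesis genes were called about as often as all genes. Of 39 cholesterol and fatty acid members tested, 3 rose, 9 fell and 27 were not called (median -0.68), with 14 falls with the tissue as a block and 5 without PreC_High 3. ELOVL1 (ENSDARG00000103735), an elongase that makes the very long chain fatty acids of myelin, had 420.4, 461 and 473 CPM in the PreC_High libraries, against 86.4, 120.3 and 61.0 CPM in the PreC_Low libraries (log2 fold change 2.34 ± 0.38, adjusted p = 0.000269). The other ID of that symbol, ELOVL1 (ENSDARG00000099960), and scdb (ENSDARG00000030265), a fatty acid desaturase, were the other rises, with log2 fold changes of 3.40 ± 1.13 and 3.84 ± 1.098. These calls were lost for ELOVL1 (ENSDARG00000099960) without PreC_High 2, PreC_Low 1, PreC_Low 2 or PreC_Low 3 (highest adjusted p = 0.0928) and scdb without PreC_Low 1 (highest adjusted p = 0.0547), which leaves 1 rise without PreC_Low 1. FASN (ENSDARG00000087657), fatty acid synthase, had 43.8, 38.01 and 33.4 CPM in the PreC_High libraries, against 272, 229 and 169.7 CPM in the PreC_Low libraries (log2 fold change -2.54 ± 0.59, adjusted p = 0.00366). Of enzymes of cholesterol synthesis, FDFT1 and MSMO1 fell, with log2 fold changes of -3.22 ± 0.65 for FDFT1 (ENSDARG00000101062) and -3.96 ± 1.04 for MSMO1 (ENSDARG00000055876). Ion channels and glial transport genes had 25 falls and 2 rises in 39 members (median -2.85). GJB1 (ENSDARG00000035553), described above, was among the rises. ATP1B2 (ENSDARG00000034424), a sodium pump subunit of glia and photoreceptors, had 6.21, 5.21 and 4.17 CPM in the PreC_High libraries, against 324, 339 and 140.1 CPM in the PreC_Low libraries (log2 fold change -5.69 ± 0.54, adjusted p = 5.88e-06). scdb came to a log2 fold change of 4.46 without PreC_Low 2.

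The 10 largest falls, chosen like the rises, included genes of neurons, photoreceptors and blood cells. GRIN1 (ENSDARG00000025728), the NMDA receptor subunit, had 1.24, 0.469 and 0.139 CPM in the PreC_High libraries, against 92.7, 80.1 and 34.9 CPM in the PreC_Low libraries (log2 fold change -6.80 ± 1.17, adjusted p = 0.000403). il2rb (ENSDARG00000075720), an interleukin 2 receptor chain, had 0.707, 1.37 and 0.751 CPM in the PreC_High libraries, against 116, 137 and 42.3 CPM in the PreC_Low libraries (log2 fold change -6.71 ± 0.64, adjusted p = 6.53e-06). CNGA3 (ENSDARG00000012297), the cone cyclic nucleotide-gated channel, had 0.243, 0.626 and 1.501 CPM in the PreC_High libraries, against 53.8, 76.2 and 49.3 CPM in the PreC_Low libraries (log2 fold change -6.25 ± 0.78, adjusted p = 3.37e-05). lyz (ENSDARG00000057789), lysozyme of myeloid cells, had 0, 0.0722 and 3.03 CPM in PreC_High and 81.9, 164 and 60.6 CPM in PreC_Low (log2 fold change -6.64 ± 1.69, adjusted p = 0.00708), a value that came to -11.44 without PreC_High 3. AANAT (ENSDARG00000036567), an enzyme of melatonin synthesis in photoreceptors, had a log2 fold change of -6.00 ± 0.76. The other 5 were lrmp (ENSDARG00000045574) (-6.79 ± 0.67), sv2ba (ENSDARG00000057427), a synaptic vesicle protein (-6.24 ± 0.93), tbc1d10c (ENSDARG00000037408) (-6.21 ± 0.66), cngb3.1 (ENSDARG00000101225), the beta subunit of the cone channel (-6.08 ± 0.62), and GLMN (ENSDARG00000010958), glomulin (-6.01 ± 0.77). GRIN1 (ENSDARG00000025728) came to a log2 fold change of -7.81 without PreC_High 1, CNGA3 (ENSDARG00000012297) to -7.10 without PreC_High 3, lyz to -6.04 without PreC_High 1, tbc1d10c to -6.83 without PreC_High 2 and GLMN to -6.96 without PreC_High 3.

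Finally, the difference between the gates was set against that of fish with cancer, Cancer_High (n = 4) and Cancer_Low (n = 4), aged 7.5 to 10.4 months, which share no library with the pre-cancerous groups. SOX10 had 748, 1389, 913 and 1053 CPM in Cancer_High, against 69.1, 16.0, 46.5 and 418 CPM in Cancer_Low. Cancer_Low 4 stood apart from the other Cancer_Low libraries. The log2 fold change was 2.90 ± 0.69 with all 8 libraries and 4.55 ± 0.47 without Cancer_Low 4. The SOX10 difference was not called between the stages (interaction 3.46 ± 1.01, adjusted p = 0.0686), but it was without Cancer_Low 2 (3.84 ± 0.82, adjusted p = 0.0192). Without Cancer_Low 4 the interaction was 1.82 ± 0.57 (adjusted p = 0.0736). Of the pre-cancerous rises 921 (42.6%) and of the falls 2934 (57.2%) were called in the same direction at the cancer stage. In the opposite direction 79 were called. Among all genes tested, 10.5% were called higher and 17.9% lower at the cancer stage (28.4% in either direction). Both contrasts come from the same fit and share its estimates of spread. The interaction, the pre-cancerous difference less the cancer difference, was called for 792 genes (3.40%), 242 higher and 550 lower. Without PreC_Low 1 it was called for 396, without PreC_Low 2 for 443, without Cancer_Low 1 for 516 and without Cancer_Low 4 for 1218. Leaving out cancer libraries was chosen after the data were seen. Among counts of 20 to 100, 60.8 to 77.8% were even in the pre-cancerous libraries and 51.2 to 53.9% in the cancer libraries, so stage, age and a difference in how libraries were read or counted cannot be told apart in this contrast.

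Of 36 oligodendrocyte and myelin members, 5 were called in the interaction, against 3.40% of all genes. Other lists held more such calls, among them inner retina (8 of 47), photoreceptor (6 of 43), synapse (6 of 43) and neural crest and Schwann (6 of 39). cldnk had 0.618 ± 0.465 CPM in Cancer_High and 1.63 ± 1.77 CPM in Cancer_Low (SD, n = 4 each) and an interaction of 5.94 ± 1.12 on the log2 scale (adjusted p = 0.00833). mag and GJB1 (ENSDARG00000035553) had interactions of 4.703 ± 1.103 and 5.71 ± 1.02. At the cancer stage mag had 0.0441 to 0.222 CPM in Cancer_High and 0.0723 to 0.397 CPM in Cancer_Low. GJB1 (ENSDARG00000035553) had 0.528 to 1.05 CPM and 0.863 to 1.44 CPM in the same order. All 3 were higher in PreC_High than in PreC_Low, and the larger difference was the pre-cancerous one. Both cancer gates held few of these transcripts, so little was left there to compare. The interaction of cldnk was 4.87 ± 0.94 without Cancer_Low 2. The interaction call was lost for mag without Cancer_Low 1 or Cancer_Low 2 (highest adjusted p = 0.0525). For mbpa the interaction was not called (adjusted p = 0.301).

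Outside the myelin list, cd59a (ENSDARG00000090615), a complement inhibitor, had 1459, 1315 and 1175 CPM in the PreC_High libraries, against 34.1, 59.3 and 20.5 CPM in the PreC_Low libraries (log2 fold change 5.12 ± 0.63, adjusted p = 3.11e-05). Its levels were 9.67 ± 4.11 CPM in Cancer_High and 21.7 ± 13.04 CPM in Cancer_Low, with an interaction of 6.28 ± 0.77 (adjusted p = 0.00117). PLCL1 (ENSDARG00000067676), a phospholipase C-like gene, had 58.9, 45.2 and 55.4 CPM in PreC_High and 13.1, 11.14 and 9.43 CPM in PreC_Low (log2 fold change 2.24 ± 0.49, adjusted p = 0.00245) and an interaction of 5.33 ± 0.66. erbb3b, not called before cancer, had a log2 fold change of -3.60 ± 0.58 at the cancer stage (adjusted p = 0.00023; interaction 3.69 ± 0.82, adjusted p = 0.0204), and SOX9 (ENSDARG00000043923) one of -2.87 ± 0.50 (interaction 3.36 ± 0.72). The interaction of erbb3b was 4.38 ± 0.76 without Cancer_High 4. In the other direction, pdha1b (ENSDARG00000010555), a pyruvate dehydrogenase subunit, had 1.30, 1.42 and 1.42 CPM in the PreC_High libraries, against 77.5, 63.0 and 33.0 CPM in the PreC_Low libraries, with 2.78 ± 2.17 CPM in Cancer_High and 1.27 ± 0.348 CPM in Cancer_Low and an interaction of -6.52 ± 0.89 (adjusted p = 0.00138).

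Other interactions below 0 rested in part on 1 Cancer_High library. mstnb (ENSDARG00000069133), a myostatin gene, had 1.40, 169, 1.41 and 3.07 CPM in Cancer_High and 2.09, 1.78, 1.42 and 1.54 CPM in Cancer_Low, so that Cancer_High 2 alone was high. Its interaction was -8.26 ± 1.82 with that library and -3.78 ± 0.51 without it (adjusted p = 0.00135), and its cancer stage log2 fold change was 0.20 ± 0.35 without it (adjusted p = 0.720). proca1 (ENSDARG00000069823) had 1.13, 24.3, 0.206 and 2.35 CPM in Cancer_High and 1.28, 0.991, 0.930 and 0.784 CPM in Cancer_Low, with the same library high. Its interaction was -7.23 ± 1.48 with Cancer_High 2 and -4.72 ± 0.87 without it (adjusted p = 0.00687), and its cancer stage log2 fold change was 0.30 ± 0.58 without it (adjusted p = 0.750). SLC4A5 (ENSDARG00000104387), a bicarbonate transporter, had 1.34, 1.57, 7.79 and 0.814 CPM in Cancer_High and 1.08, 0.751, 1.31 and 0.675 CPM in Cancer_Low, with Cancer_High 3 apart. Its interaction was -6.60 ± 1.18 with Cancer_High 3 and -5.38 ± 0.95 without it (adjusted p = 0.00659). The pre-cancerous call of mstnb (log2 fold change -3.58 ± 1.33, adjusted p = 0.0490) was lost for mstnb without PreC_High 1, PreC_High 2, PreC_High 3, PreC_Low 1, PreC_Low 2 or PreC_Low 3 (highest adjusted p = 0.134).

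**Figure D5:**
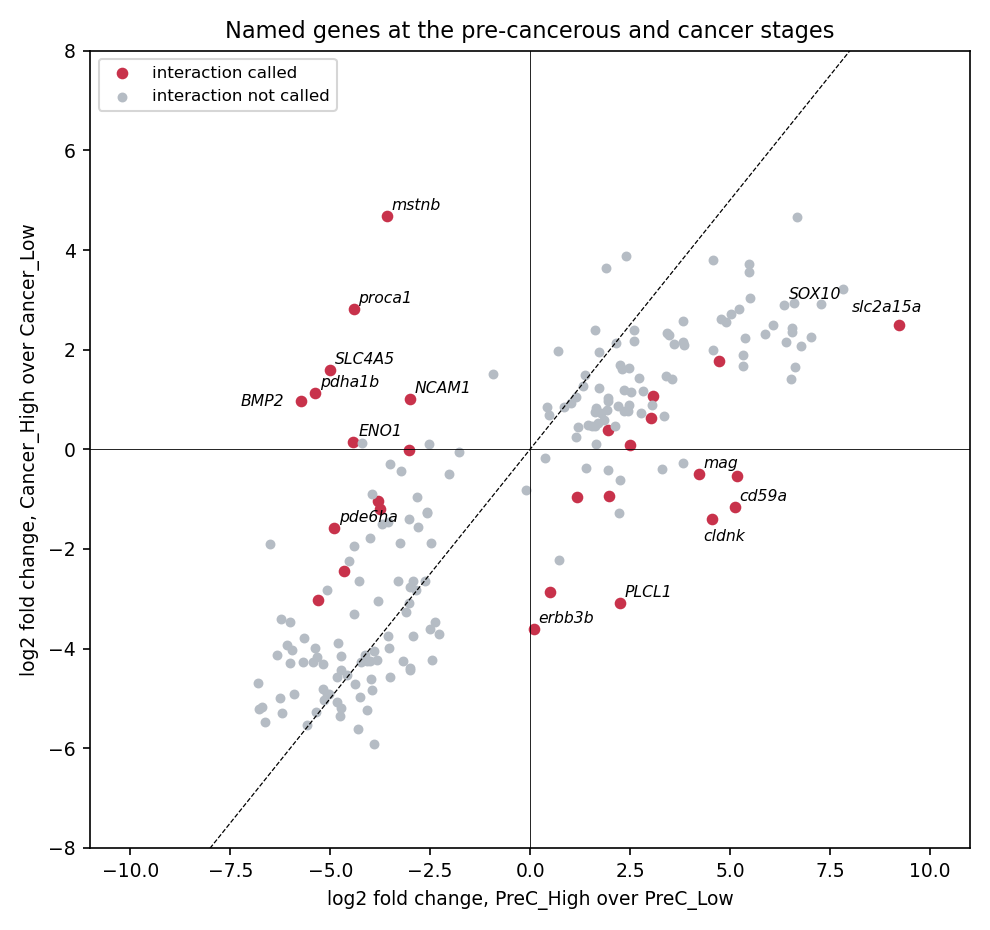
Log2 fold change of Cancer_High over Cancer_Low against that of PreC_High over PreC_Low for the genes named here that have counts in both groups, except RAG1 and RAG2; red points have a called interaction, that is, a difference between the stages with an adjusted p under 0.05, and the dashed line marks equal changes. Points such as PLCL1, cldnk and cd59a lie above 0 before cancer and below 0 at the cancer stage, while mstnb and proca1 lie below 0 before cancer, and their distance above 0 at the cancer stage rests on Cancer_High 2. With 1 cancer library left out, the cancer stage difference was called each time for PLCL1 and never for cldnk (lowest adjusted p = 0.0792). For cd59a it was called only without Cancer_High 3 or Cancer_Low 4.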

How the data were processed

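Polyadenylated RNA from sorted cells was sequenced, and the deposited table holds read counts per gene, not normalized, for all 17 libraries. FastQC, STAR, HTSeq, DESeq2 and the build danRer10 are named in the submitters' processing notes. Versions, counting options and the use of strand were not given in the sources used here. The kit marks strand and both ends were read, per the labels' protocols. Among counts of 20 to 100, 60.8 to 77.8% were even in the pre-cancerous libraries, so some counts may hold both ends of a fragment. Part of the genotype and some genes are not reported here.

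Counts were tested with edgeR 4.0.16 in R 4.3.3, with the quasi-likelihood test over 5 groups and 17 libraries, TMM scaling, a filter (at least 10 counts per library, 15 in total, by filterByExpr) and robust dispersion, which left 23299 of 31701 IDs and 12 residual degrees of freedom. Errors of log2 fold changes are approximate standard errors, the absolute log2 fold change divided by the square root of its F statistic. CPM errors are SDs. Symbols came from a gene name table for 26237 IDs, of which 4014 share a symbol, and such genes are given by ID because reads of close copies could be split between them. A gene with a whole group at 0 is given as a bound, from a floor of 3 counts in each library of that group, which covers counting error only. Where counts hold both ends of a fragment, 3 counts stand for fewer than 3 fragments. The bounds, among them those of TBR1, WNT8B and heyl, may then be too high. The procedure was tested on simulated counts.

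Named genes were SOX10 and brca2, the 10 largest rises and falls (mean log2 CPM of at least 2), up to 4 called members per list by adjusted p, and up to 4 interaction genes per direction. Genes with a clone or locus name were left out of the largest rises and falls and of the interaction genes. Of 1246 list symbols, 87 matched no ID. The members and lists were chosen with earlier results of these data known.

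The labels give the same tissue code to the PreC_High and PreC_Low libraries of a number, so they are paired by source. Correlations of their deviations from the group means were 0.0229, -0.00862 and 0.0750 for tissues 1, 2 and 3, against -0.0746 to 0.0584 between libraries of different tissues. The unblocked fit is the one reported. Alternatives were RLE scaling, other filters, DESeq2 1.42.0, limma 3.58.1 (voom with duplicateCorrelation), fits of the 6 libraries alone, the tissue as a block, and leaving out a pre-cancerous library or a tissue. Leaving out each cancer library was added after the data were seen. The cancer and control libraries both entered the fit, so they share in the spread and scaling behind each pre-cancerous test. The cancer libraries also entered the interaction.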

Additional observations from a re-analysis of the deposited data

Results flagged for a closer look

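For 29 of the genes named above, the difference between sox10-high and sox10-low cells differed between the pre-cancerous and the cancer stage, by the interaction test across all genes (edgeR, adjusted p under 0.05). The values here are interactions on the log2 scale, the pre-cancerous High minus Low difference less the cancer one, and what lies behind them was not tested. In the myelin and crest lists they were 5.94 for cldnk, 5.71 for GJB1 (ENSDARG00000035553), 4.703 for mag, 3.69 for erbb3b, 3.36 for SOX9 (ENSDARG00000043923), 2.41 for zeb2a and -4.03 for NCAM1 (ENSDARG00000056181). Genes of the pigment lists had interactions of 6.74 for slc2a15a, 2.94 for TFEC and 2.401 for MITF (ENSDARG00000003732). For retinal and neuronal genes they were -2.29 for CNGA1 (ENSDARG00000012125), -3.33 for pde6ha, -2.57 for gnao1b, -3.02 for PROX1 and 6.37 for TBR1, the last a fitted value that depends on the prior count because each PreC_Low library was at 0.

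Signalling and response genes had interactions of 1.57 for ID1, 2.02 for id2b, -6.72 for BMP2 (ENSDARG00000041430), -2.76 for IL17RD, 2.93 for mxc and 2.14 for nfkbiab. Those of the metabolic genes were -2.22 for PFKP (ENSDARG00000012801), -4.56 for ENO1 (ENSDARG00000013750) and -6.52 for pdha1b. The remaining values were 6.28 for cd59a, 5.33 for PLCL1, -6.60 for SLC4A5 (ENSDARG00000104387), -7.23 for proca1 and -8.26 for mstnb. The last 3 rested in part on 1 Cancer_High library. Without Cancer_High 3 the value was -5.38 for SLC4A5 (ENSDARG00000104387), and without Cancer_High 2 it was -4.72 for proca1 and -3.78 for mstnb.

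With each of the 8 cancer libraries left out in turn, a step chosen after the data were seen, the interaction call was lost for mag without Cancer_Low 1 or Cancer_Low 2 (highest adjusted p = 0.0525), MITF (ENSDARG00000003732) without Cancer_High 1, Cancer_High 2, Cancer_Low 1, Cancer_Low 3 or Cancer_Low 4 (highest adjusted p = 0.0633), gnao1b without Cancer_High 1 or Cancer_Low 3 (highest adjusted p = 0.0545) and TBR1 without Cancer_High 1, Cancer_High 3, Cancer_High 4, Cancer_Low 1, Cancer_Low 2 or Cancer_Low 3 (highest adjusted p = 0.0724). It was also lost for ID1 without Cancer_High 1, Cancer_Low 1 or Cancer_Low 3 (highest adjusted p = 0.0537), IL17RD without Cancer_High 1, Cancer_High 3 or Cancer_Low 2 (highest adjusted p = 0.0573), id2b without Cancer_High 1, Cancer_High 3, Cancer_High 4, Cancer_Low 1, Cancer_Low 2, Cancer_Low 3 or Cancer_Low 4 (highest adjusted p = 0.0816), BMP2 (ENSDARG00000041430) without Cancer_Low 1 (highest adjusted p = 0.0501) and mxc without Cancer_Low 1 or Cancer_Low 3 (highest adjusted p = 0.0522). The interaction of slc2a15a was 5.05 ± 1.12 without Cancer_Low 4, and that of BMP2 (ENSDARG00000041430) was -5.91 ± 1.53 without Cancer_High 3. Interactions without a pre-cancerous library are not given gene by gene, so genes not listed here may still lose the call there. Over all genes the 792 calls came to 396 without PreC_Low 1 and 443 without PreC_Low 2.

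Single cancer libraries lay far from the other 3 of their group by Dixon's test in 4 of the 60 groups checked, the Cancer_High and Cancer_Low values of 30 genes, and chance gives about 1 in 20 groups. Cancer_High 2 was the high library for mstnb, with 169 CPM, and for proca1, with 24.3 CPM. Cancer_High 3 was the high library for SLC4A5 (ENSDARG00000104387), with 7.79 CPM, and Cancer_Low 4 for SOX10, with 418 CPM.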

How the results depend on the processing

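The reported 2161 rises and 5127 falls came to 3341 rises with DESeq2 and 3708 with limma voom, to 973 rises and 3351 falls without tissue 1, and to 987 rises without tissue 2. Leaving out 1 library gave 1332 to 3023 rises and 4183 to 4976 falls. The 792 interaction calls were 1309 with voom and 396 to 1218 without 1 library (the cancer libraries were left out after the data were seen), where the Cancer_High and Cancer_Low contrast had 4715 to 8091 calls. With the replicate block the pairing gave 2477 rises and 5124 falls in all 17 libraries and 2560 and 3568 in the 6 libraries alone, and 6566 and 5186 of the 7288 calls were also made there. The interaction had 561 calls with the block, and it cannot be estimated in the 6 libraries alone. Rises were 29.7% of calls, but 41.5% with a filter of 1 CPM in 3 libraries, 40.7% in the 6 libraries alone, 41.8% there with the block and 19.2% without tissue 2. Over all genes the median was -0.15 on the log2 scale, and 0.06, -0.0054, -0.00080 and -0.28 in these settings.

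Named genes were chosen in part for a small adjusted p or a call kept without each library, so they do not stand for all calls. Over all genes, 4496 of the 7288 calls were kept without each of the 6 libraries. Of 195 called genes named by fold change, 0 changed direction under any of the 17 alternatives, 141 stayed called wherever tested, 164 stayed called without each library, and 2 lost the call with the block in all 17 libraries, TYRP1 (ENSDARG00000056151) and LOXL2. In the 6 libraries alone with the block, 4 others lost it, ENPP6, bco1l, ERBB4 (ENSDARG00000063207) and heyl. Signs turned in uncalled genes. The log2 fold change of brca2 was 0.10 with the CPM filter, 0.035 in the 6 libraries, 0.075 there with the block, 0.083 without tissue 3 and -0.40 to 0.29 without 1 library. That of erbb3b was -0.14 without tissue 3 and -0.21 to 0.37 without 1 library. RAG1 had -17.77 (a fitted value, with the PreC_High libraries left all at 0) to 5.05 without 1 library, and RAG2 had -9.99 to 7.15, with 0.20 under voom and 1.97 without tissue 3. The causes were not tested. At 61845021 to 80096474 counts a library, depth limits genes of few counts, such as those at 0 in a group.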

Other observations

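Several pituitary hormone genes were highest in PreC_Low 3. They were chosen after their values were seen. gh1 (ENSDARG00000038185), growth hormone, had 0, 0.313 and 4.93 CPM in the PreC_High libraries, against 0, 0.0287 and 141 CPM in the PreC_Low libraries. POMC (ENSDARG00000043135), the precursor of the corticotropic hormones, had 0.287, 0.409 and 3.91 CPM in the PreC_High libraries, against 0.840, 0.273 and 116 CPM in the PreC_Low libraries. TSHB (ENSDARG00000033726), a thyrotropin subunit, had 0, 0 and 21.3 CPM in the PreC_High libraries, against 0, 1.09 and 148 CPM in the PreC_Low libraries. CGA (ENSDARG00000040479), the subunit shared by the glycoprotein hormones, had 0.0110, 0 and 16.9 CPM in the PreC_High libraries, against 0, 0.0144 and 109.5 CPM in the PreC_Low libraries, and lhb (ENSDARG00000099363), a luteinizing hormone subunit, had 0, 0 and 0 CPM in the PreC_High libraries, against 0, 1.95 and 30.5 CPM in the PreC_Low libraries. lhb was at 0 in every PreC_High library and in PreC_Low 1, so the groups overlapped. It was called (adjusted p = 0.00882) with most of its level in PreC_Low 3, and no value without that library is given. Each was highest in PreC_Low 3 and, outside tissue 3, under 2 CPM. Within tissue 3, the PreC_High library held 3.50% of the PreC_Low level for gh1, 3.37% for POMC, 14.4% for TSHB and 15.4% for CGA (ENSDARG00000040479), against 2.68% for RAG1 and 3.58% for RAG2. The source of these transcripts was not tested.

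GSC (ENSDARG00000059073), goosecoid, a homeodomain factor of the embryonic organizer and of crest-derived head mesenchyme, was also chosen after its values were seen. It had 11.8, 22.3 and 19.5 CPM in the PreC_High libraries, against 0, 0 and 0.267 CPM in the PreC_Low libraries and was called (adjusted p = 0.00272). The PreC_Low libraries held almost none of its counts, so no fold change is given.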
